A study of Homo sapiens with 8 samples.

Results

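The kinetochore and spindle checkpoint genes described here are 38 genes. They were chosen by name as members of the kinetochore complexes, the spindle checkpoint and the chromosomal passenger complex. The choice was made with earlier results of these data known. These genes were 38 of the 26475 genes in the deposited count table. All 38 were measured, and all 38 passed the filter on low counts. RNA was sequenced from BT474, a luminal breast carcinoma line of human origin that carries extra copies of ERBB2. The labels sort the 8 libraries by NPY1R, the gene for neuropeptide Y receptor Y1, into a high group (NPY1R high, 4 libraries) and a low group (NPY1R low, 4 libraries). They enter this as the genotype, name no other allele and no agent for either group, and leave out how the groups were made. They do not say whether the 4 samples of a group were separate cultures, so p-values measure the spread between these samples, which may be technical. The comparison asks which genes of the chromosome segregation machinery differed between the groups.

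The kinetochore is the protein structure that joins each chromosome to spindle microtubules in mitosis. Its base is the centromeric nucleosome, in which the histone variant CENPA replaces H3. The inner kinetochore, a network of CENP proteins, stays on that nucleosome through the cell cycle. The MIS12 complex sits on the inner kinetochore and carries the NDC80 complex, which grips the microtubule. The spindle checkpoint proteins gather on kinetochores that lack microtubules and hold back the anaphase-promoting complex, and the chromosomal passenger complex destabilises faulty attachments. Many of these genes are transcribed mainly in G2 and M phase, so their RNA level in a culture follows in part how many cells are dividing. In bulk RNA, fewer cells in mitosis and less RNA per mitotic cell cannot be told apart.

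Total counts ranged from 18025648 to 30609791 per library, and the 38 genes together took 0.213% to 0.257% of the counts in NPY1R high libraries and 0.333% to 0.344% in NPY1R low libraries. NPY1R had 699.2 to 1049 CPM (counts scaled to a common library size) in NPY1R high and 90.8 to 103.7 CPM in NPY1R low, the direction the labels give. Luminal epithelial markers (KRT8, KRT18, KRT19, EPCAM, CDH1 and ERBB2) summed to 7048 to 8116 CPM in NPY1R high libraries against 6935 to 9183 CPM in NPY1R low ones, with ERBB2 the largest share. EPCAM fell (log2 change -0.30, edgeR adjusted p = 0.00436), and CDH1, at -0.16, was lower in every NPY1R high library but did not pass; their part in the results was not tested. Immune markers were at 0 to 0.0551 CPM in NPY1R high libraries against 0 to 0.0458 CPM in NPY1R low ones. Of the fibroblast markers, COL1A2 and PDGFRB were at 0 in every library, and the 4 summed to 10.9 to 17.5 CPM in NPY1R high libraries and 10.5 to 17.5 CPM in NPY1R low ones. The 3 endothelial markers summed to 9.22 to 15.5 CPM in NPY1R high libraries and 13.5 to 18.2 CPM in NPY1R low ones. The 3 basal markers summed to 4.84 to 8.81 and 4.48 to 7.78 CPM, with KRT14 at 0 in every library. Single genes made up nearly all of these sums: COL1A1 for fibroblast, VWF for endothelial and TP63 for basal markers. The other markers of these kinds had at most 0.705 CPM (CDH5, NPY1R low replicate 1). Transcripts rich in GC were low in NPY1R high replicate 3 and NPY1R low replicate 4, and results are also given without these libraries.

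Of the 38 genes, 23 fell in NPY1R high and 0 rose (Benjamini-Hochberg adjusted p under 0.05 over all 14008 genes tested, edgeR's quasi-likelihood test). Over all tested genes, 7.81% were lower and 5.78% higher. At an unadjusted p under 0.05 in edgeR's test, 28 of the 38 were lower and 0 higher. The share of all tested genes at this looser threshold is not given, here or for the lists below. DESeq2 and limma-voom each also gave 23 lower and 0 higher. Over all 14008 genes they called 1088 and 1078 lower. The median log2 change of the 38 genes was -0.40, against -0.03 over all tested genes. Among the largest changes were those of CENPE (GENCODE gene model on GRCh38, chr4:103105806-103198409, minus strand), CENPF (chr1:214603195-214664588, plus strand) and BUB1 (chr2:110637698-110678114, minus strand). In 24 of the 38 genes, every NPY1R high library lay below every NPY1R low library, which held for 11.4% of all tested genes. Without NPY1R high replicate 3 and NPY1R low replicate 4, 22 of the 38 fell, as did 961 of all 14083 genes tested there. The spread within the list was wide, from CENPE with a log2 change of -1.02 to DSN1 with 0.03, and the complexes differed in their counts.

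**Figure D1:**
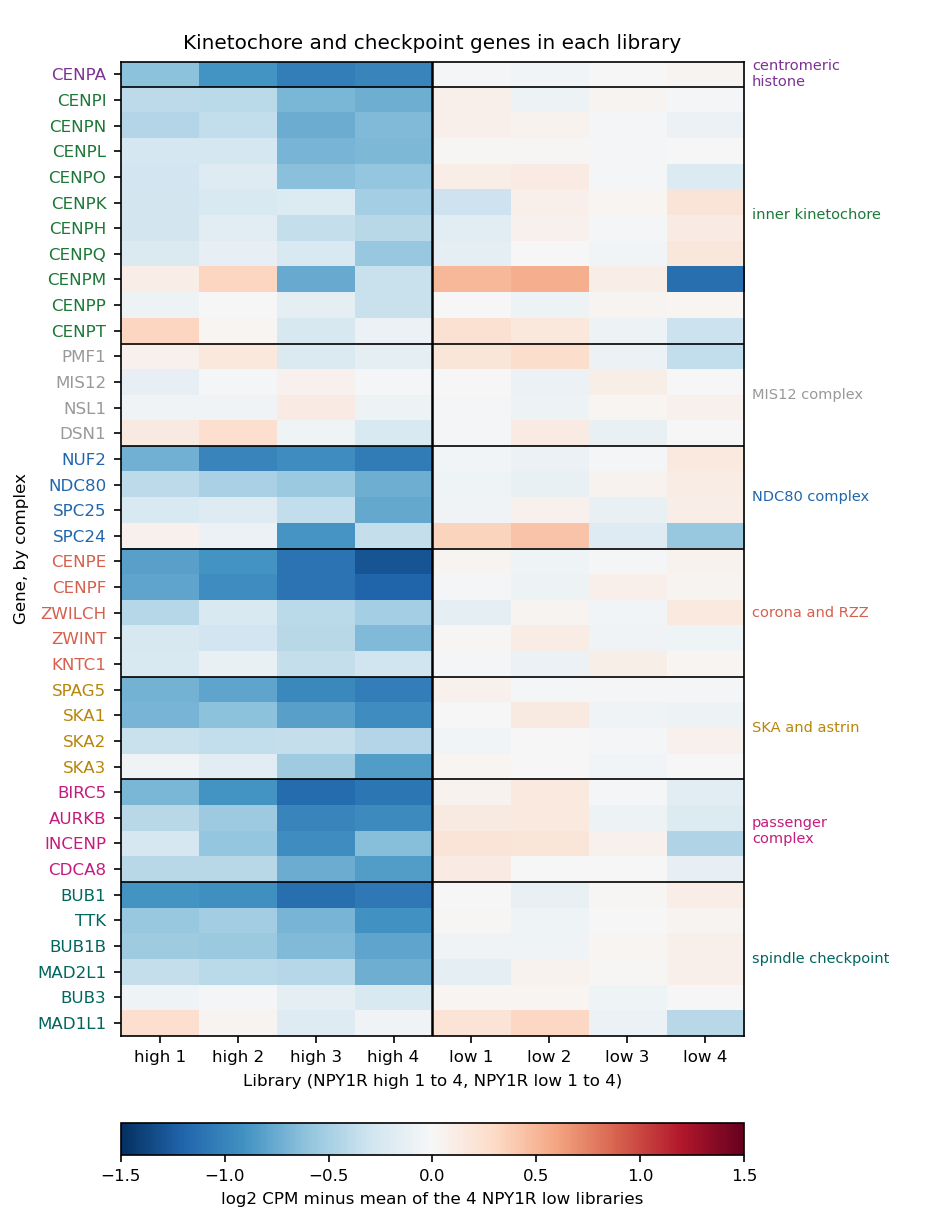
Level of each of the 38 genes in each library, as log2 CPM minus the mean of the 4 NPY1R low libraries, with genes in rows grouped by complex and libraries in columns. Blue rows such as CENPE, CENPF and BUB1 are low in all 4 NPY1R high libraries, the 4 rows of the MIS12 complex stay pale, and CENPM is uneven within both groups.

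**Figure D2:**
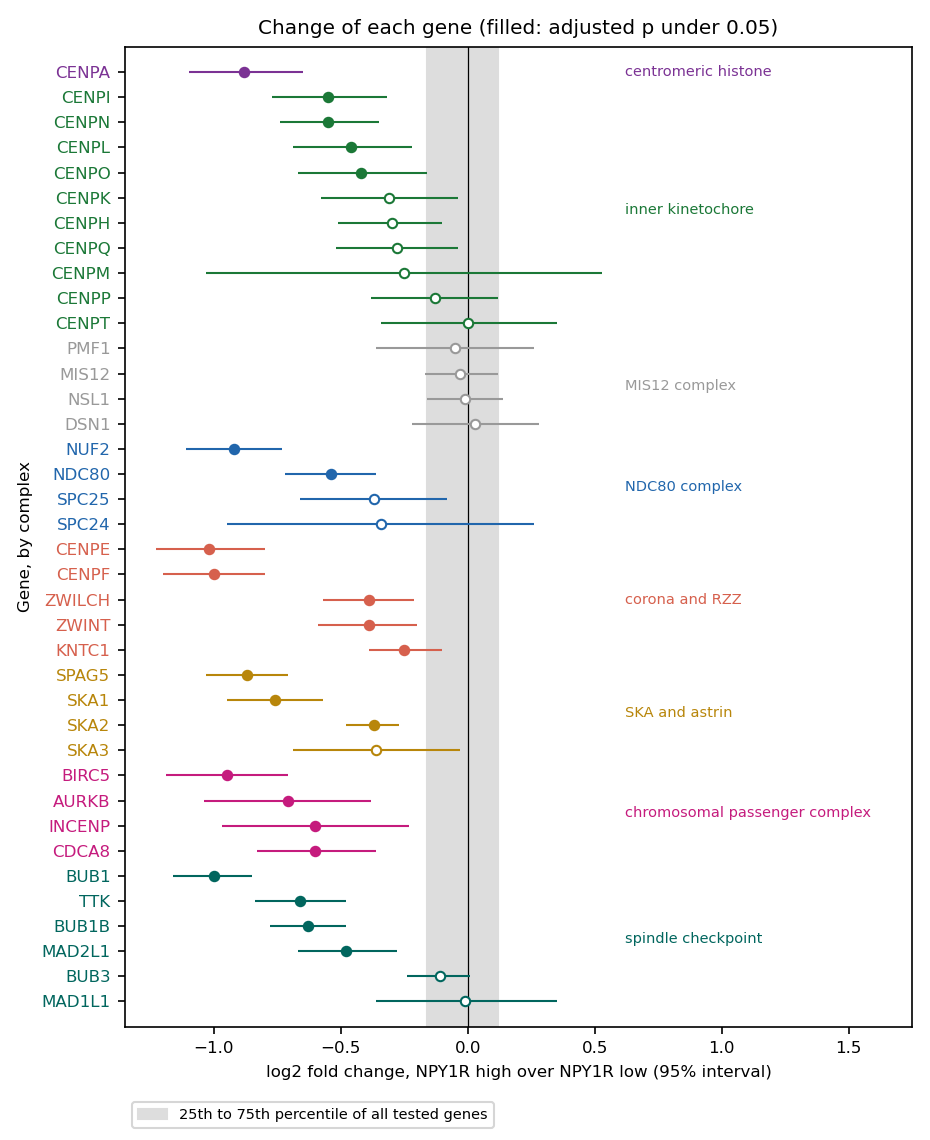
Log2 fold change of each gene (NPY1R high over NPY1R low) with its 95% interval from the edgeR fit, coloured by complex; filled points passed an adjusted p of 0.05 and the grey band spans the 25th to 75th percentile of all tested genes (-0.16 to 0.12). The chromosomal passenger complex and the corona group are filled throughout. The points of the MIS12 complex lie inside the band, with intervals that reach beyond it, the widest being that of PMF1 (-0.36 to 0.26).

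Of the 6 spindle checkpoint genes, 4 fell, with a median log2 change of -0.56 over the 6. BUB1, the kinase that marks the centromere for shugoshin and recruits other checkpoint proteins, had 65.6, 64.4, 56.0 and 58.3 CPM in NPY1R high replicates 1 to 4. Its levels in NPY1R low replicates 1 to 4 were 122.6, 112.8, 123.6 and 130.6 CPM. The groups were far apart, with a log2 change of -1.0 (SE 0.07, edgeR adjusted p = 1.69e-05). TTK, the kinase also known as MPS1 that starts the checkpoint signal, had 55.5 to 72.4 CPM in NPY1R high libraries against 99.8 to 106.7 CPM in NPY1R low ones, a log2 change of -0.66 (SE 0.08, edgeR adjusted p = 0.000444). BUB1B encodes BUBR1, a subunit of the complex that inhibits CDC20, and changed by -0.63 (SE 0.07) on the log2 scale. MAD2L1, which encodes the CDC20-binding protein MAD2, changed by -0.48 (SE 0.09), from 79.4 to 93.2 CPM in NPY1R low to 52.9 to 68.5 CPM in NPY1R high.

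The adaptor and the scaffold of the checkpoint did not pass the test. BUB3, which binds both BUB1 and BUBR1 and brings them to the kinetochore, had 110.0, 113.3, 104.5 and 98.6 CPM in NPY1R high libraries against 117.5, 117.2, 110.5 and 115.6 CPM in NPY1R low ones. These ranges overlap, and the log2 change was -0.11 with a 95% interval of -0.24 to 0.01. MAD1L1, the scaffold that holds MAD2 at the kinetochore, had 18.5 ± 2.39 CPM in NPY1R high libraries against 18.6 ± 4.03 CPM in NPY1R low ones (n = 4 each, ± SD). Its interval of -0.36 to 0.35 was wide, and its sign turned to 0.05 with upper-quartile factors.

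All 4 genes of the chromosomal passenger complex fell, with a median log2 change of -0.66. BIRC5, which encodes survivin, the subunit that reads the phosphorylated histone tail at the centromere, had 50.95, 44.0, 36.9 and 38.7 CPM in NPY1R high. The NPY1R low libraries had 85.3, 90.9, 80.9 and 73.0 CPM, so the lowest of them lay well above the highest NPY1R high library. The log2 change was -0.95 (SE 0.11, edgeR adjusted p = 0.000304). AURKB, the kinase of the complex, had 11.9 to 17.9 CPM in NPY1R high libraries against 20.7 to 26.4 CPM in NPY1R low ones, a log2 change of -0.71 (SE 0.15, edgeR adjusted p = 0.0101). CDCA8, which encodes borealin, changed by -0.60 (SE 0.11) without overlap. INCENP, the scaffold that binds and activates the kinase, also changed by -0.60 (SE 0.17), but its groups overlapped, since NPY1R low replicate 4 had 52.4 CPM against 74.9 to 82.0 in replicates 1 to 3 of that group. The INCENP call was often lost: in 6 of the 8 fits that each left out 1 library the edgeR adjusted p rose to between 0.0887 and 0.121. Without NPY1R high replicate 3 and NPY1R low replicate 4 its edgeR adjusted p was 0.00216 at the same log2 change of -0.60.

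CENPA, the histone that marks the centromere, fell by 0.88 on the log2 scale (SE 0.10, edgeR adjusted p = 0.000321). It had 17.0, 14.0, 12.7 and 13.1 CPM in NPY1R high libraries against 25.8, 25.4, 26.3 and 26.8 CPM in NPY1R low ones. The NPY1R low libraries lay close together, and the NPY1R high libraries were all below them.

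Of the 10 inner kinetochore genes, 4 fell (CENPI, CENPN, CENPL and CENPO), and their median log2 change over all 10 was -0.31. CENPN, which binds the CENPA nucleosome together with CENPL, had 49.3 to 63.6 CPM in NPY1R high libraries against 77.5 to 86.8 CPM in NPY1R low ones, a log2 change of -0.55 (SE 0.09, edgeR adjusted p = 0.0022). CENPL had 49.3, 49.4, 36.6 and 37.3 CPM in NPY1R high libraries against a narrow 58.3 to 60.2 CPM in NPY1R low ones. Its log2 change was -0.46 (SE 0.11, edgeR adjusted p = 0.0172). CENPI, of the group that also holds CENPH, CENPK and CENPM, changed by -0.55 (SE 0.10) without overlap.

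CENPO, of the subcomplex that also holds CENPP and CENPQ, changed by -0.42 (SE 0.11, edgeR adjusted p = 0.0371), with overlapping groups. Its call was lost in 6 of the 8 fits that left out 1 library, at edgeR adjusted p of 0.0511 to 0.148, with library totals as the scaling (0.0673), with no filter on low counts (0.0569) and with a filter of 1 CPM (0.0549). CENPL lost its call without NPY1R high replicate 4 or without NPY1R low replicate 1, with an edgeR adjusted p of up to 0.0707.

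The other 6 inner kinetochore genes did not pass. CENPH had 18.2 ± 1.40 CPM in NPY1R high libraries against 22.4 ± 1.86 CPM in NPY1R low ones (n = 4 each, ± SD), with no overlap, a log2 change of -0.30 and an edgeR adjusted p of 0.0554. CENPK and CENPQ had log2 changes of -0.31 and -0.28, with 95% intervals of -0.58 to -0.04 and -0.52 to -0.04. CENPQ was at -0.16 without NPY1R high replicate 4 and at -0.18 without NPY1R low replicate 4. CENPM was uneven within both groups, at 3.47 to 7.47 CPM in NPY1R high libraries against 2.67 to 8.69 CPM in NPY1R low ones, and its interval of -1.03 to 0.53 leaves both directions possible. CENPP had a log2 change of -0.13 with an interval of -0.38 to 0.12. CENPT, which links the inner kinetochore directly to NDC80, had 19.0, 15.4, 12.8 and 14.2 CPM in NPY1R high libraries against 17.8, 17.0, 14.4 and 12.1 CPM in NPY1R low ones. These 2 sets of values cover almost the same range, and the log2 change was 0.00 with an interval of -0.34 to 0.35.

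The MIS12 complex, the bridge from the inner kinetochore to NDC80, showed no change that passed the test. In edgeR's test 0 of its 4 genes passed, 0 had an unadjusted p under 0.05, and DESeq2 and limma-voom also called 0 of the 4. MIS12 itself had 41.4, 44.2, 46.9 and 44.3 CPM in NPY1R high libraries against 44.8, 42.2, 47.7 and 45.3 CPM in NPY1R low ones. The values of the groups interleave, and the log2 change was -0.03 with a 95% interval of -0.17 to 0.12. NSL1 was as even, at 43.3 ± 2.84 CPM in NPY1R high libraries against 43.8 ± 1.87 CPM in NPY1R low ones (n = 4 each, ± SD), with an interval of -0.16 to 0.14. DSN1, whose phosphorylation by Aurora B strengthens binding to the inner kinetochore, had 15.8 to 22.0 CPM in NPY1R high libraries against 17.2 to 20.2 CPM in NPY1R low ones, with an interval of -0.22 to 0.28. PMF1, the fourth subunit, had a wider interval of -0.36 to 0.26. The intervals of all 4 genes exclude a fall as large as the median of the 38 genes. The signs of MIS12 and NSL1 turned to 0.03 and 0.04 with upper-quartile factors, and that of PMF1 to 0.01.

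In the NDC80 complex, which binds the MIS12 complex at its base, 2 of 4 genes fell. NUF2 fell by 0.92 on the log2 scale (SE 0.08, edgeR adjusted p = 8.57e-05), with 39.2, 32.7, 33.9 and 31.3 CPM in NPY1R high libraries against 63.0, 61.1, 64.3 and 71.6 CPM in NPY1R low ones. NDC80, its partner at the microtubule-binding end, had 54.3, 50.98, 48.6 and 42.9 CPM in NPY1R high libraries against 68.5, 66.4, 74.0 and 77.4 CPM in NPY1R low ones. Its log2 change was -0.54 (SE 0.08, edgeR adjusted p = 0.00181), and neither gene showed overlap between the groups. SPC25, at the end that faces the MIS12 complex, had 8.37 to 12.5 CPM in NPY1R high libraries against 13.2 to 15.3 CPM in NPY1R low ones, with no overlap, but an edgeR adjusted p of 0.0956. SPC24, the partner of SPC25, had the fewest counts of the 38 genes, down to 48 in a library, and its interval of -0.95 to 0.26 was wide. Leaving out 1 library moved its log2 change from -0.34 to between -0.49 (without NPY1R high replicate 1) and -0.15 (without NPY1R high replicate 3).

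All 5 genes of the outer corona group fell, CENPE and CENPF the most. CENPE, a kinesin that carries chromosomes along microtubules, had 74.1, 69.7, 60.5 and 52.9 CPM in NPY1R high libraries against 133.9, 124.2, 127.4 and 135.3 CPM in NPY1R low ones. CENPF, a very large coiled-coil protein of the outer kinetochore, had 331.1, 298.8, 266.3 and 248.1 CPM in NPY1R high libraries against 559.3, 540.6, 601.5 and 588.3 CPM in NPY1R low ones. CENPE was 2.02-fold and CENPF 2.00-fold lower in NPY1R high, with log2 changes of -1.02 (SE 0.10) and -1.0 (SE 0.09) and edgeR adjusted p of 0.000103 and 6.35e-05. ZWINT, which docks the RZZ complex (ROD, ZW10 and ZWILCH, a platform for MAD1 and dynein), and ZWILCH itself each changed by -0.39 on the log2 scale. KNTC1, the gene for ROD, had 177.8 to 211.5 CPM in NPY1R high libraries against 214.9 to 240.9 CPM in NPY1R low ones. Its log2 change was -0.25 (SE 0.06, edgeR adjusted p = 0.0297). The KNTC1 call was lost with each of the 3 other scalings tried in edgeR, at edgeR adjusted p of 0.0573 with median-of-ratios factors, 0.0934 with upper-quartile factors and 0.104 with library totals, and with no filter (0.0839) or a filter of 1 CPM (0.071). DESeq2 and limma-voom kept it. It was also lost in 6 of the 8 fits that left out 1 library, at up to 0.173 in edgeR's adjusted p, and without NPY1R high replicate 3 and NPY1R low replicate 4 together (0.147). ZWILCH lost its call without NPY1R high replicate 4 (edgeR adjusted p = 0.0579) and ZWINT without NPY1R low replicate 1 (0.0521).

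**Figure D3:**
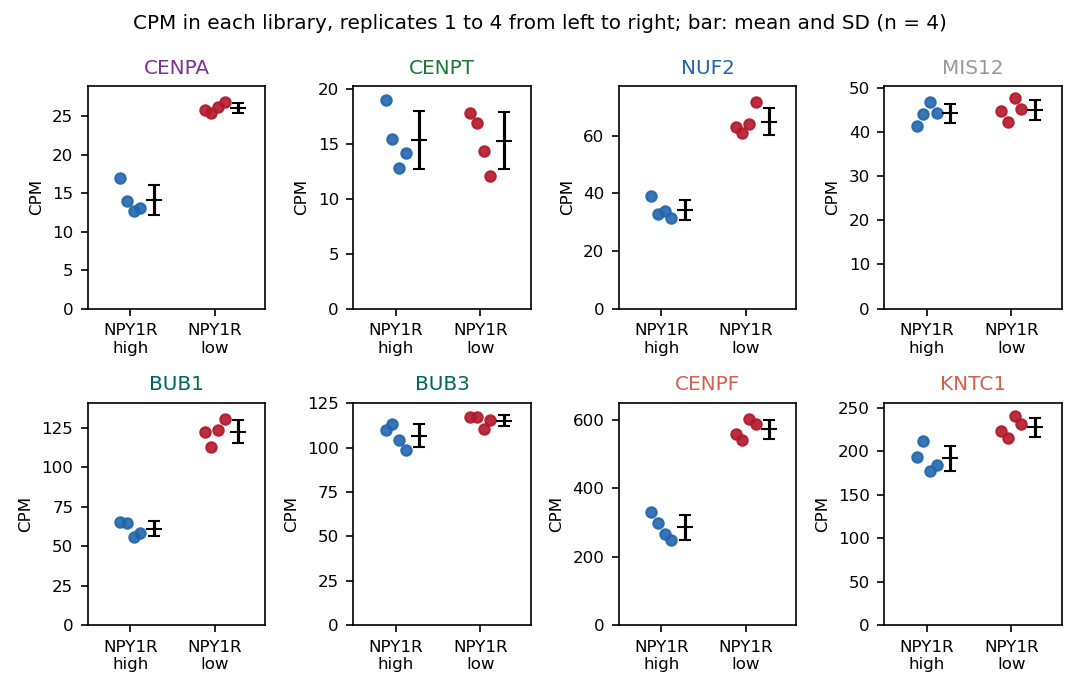
CPM of 8 genes in the 4 NPY1R high (blue) and 4 NPY1R low (red) libraries, from 0, with the mean and SD (n = 4) beside the points. CENPA, NUF2, BUB1 and CENPF lie in separate ranges in the groups, KNTC1 is separated by a smaller gap, and CENPT, MIS12 and BUB3 overlap.

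Among the genes that hold microtubule ends, SPAG5, which encodes astrin, fell by 0.87 on the log2 scale (SE 0.07, edgeR adjusted p = 5e-05). Its levels were 119.6, 113.8, 100.3 and 95.8 CPM in NPY1R high libraries against 204.3, 194.2, 192.6 and 193.7 CPM in NPY1R low ones. SKA1, the microtubule-binding subunit of the SKA complex, had 24.4 to 30.3 CPM in NPY1R high libraries against 44.1 to 51.1 CPM in NPY1R low ones, a log2 change of -0.76 (SE 0.08, edgeR adjusted p = 0.000264). SKA2, of the same complex, changed less but very evenly, with 426.8 to 461.4 CPM in NPY1R high, 563.5 to 608.0 CPM in NPY1R low and a log2 change of -0.37 (SE 0.05, edgeR adjusted p = 0.000702). SKA3 had 30.6, 28.3, 22.0 and 17.8 CPM in NPY1R high libraries against 30.9 to 32.5 CPM in NPY1R low ones. The highest NPY1R high library lay just under the lowest NPY1R low library, and SKA3 did not pass (edgeR adjusted p = 0.151).

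Ratios of counts between partner genes within a library do not depend on the scaling between libraries, and they are given here as a description with no test, the pairs having been chosen with the changes known. There were 0.947, 0.740, 0.723 and 0.707 NUF2 counts per MIS12 count in NPY1R high and 1.41, 1.45, 1.35 and 1.58 in NPY1R low. The groups did not overlap in this ratio, which sets a gene of the NDC80 complex against a gene of the complex that carries it. BUB1 counts per BUB3 count, a kinase against its adaptor, were 0.536 to 0.596 in NPY1R high and 0.963 to 1.13 in NPY1R low. Within the NDC80 dimer, NUF2 counts per NDC80 count were 0.698 ± 0.0405 in NPY1R high and 0.908 ± 0.0267 in NPY1R low (n = 4 each, ± SD). CENPF counts per KNTC1 count were 1.49 ± 0.158 in NPY1R high and 2.51 ± 0.0174 in NPY1R low (n = 4 each, ± SD). These 2 genes had almost the same proportion in all 4 NPY1R low libraries. MAD2L1 counts per MAD1L1 count overlapped, at 3.00 to 4.10 in NPY1R high and 3.79 to 6.86 in NPY1R low.

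**Figure D4:**
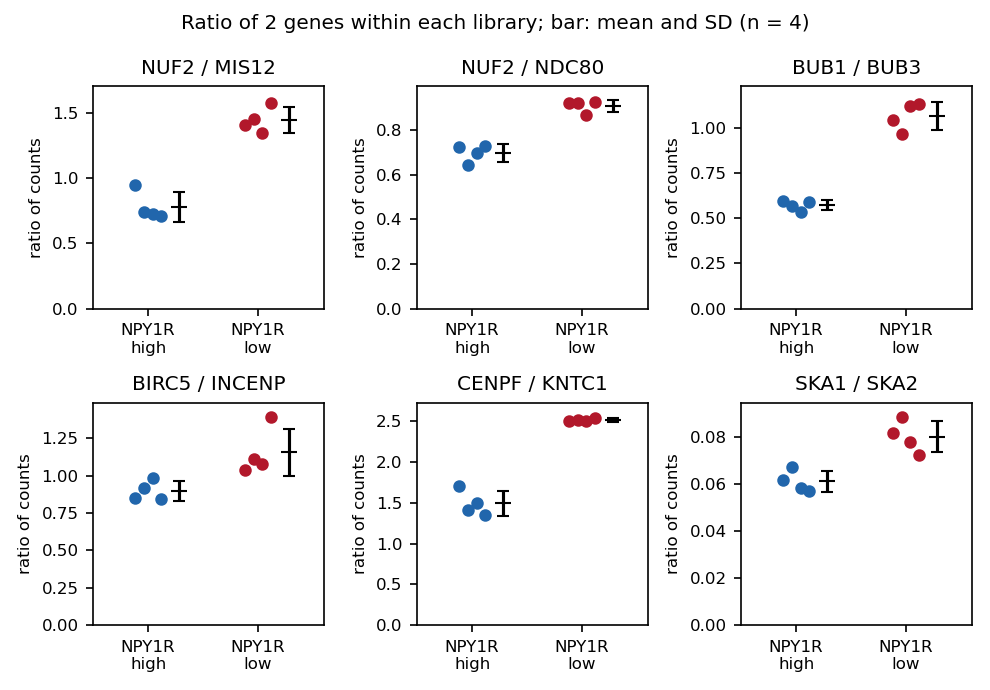
Ratio of the counts of 2 genes within each of the 4 NPY1R high (blue) and 4 NPY1R low (red) libraries, from 0, with the mean and SD (n = 4) beside the points. All 6 ratios are lower in every NPY1R high library than in any NPY1R low library.

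Genes transcribed in G2 and M phase often carry a cell cycle genes homology region (CHR), the element bound by the MuvB core of the DREAM and B-MYB complexes, close to their start, with CCAAT boxes, the site of NF-Y, upstream. RefSeq promoter windows (GRCh38.p14, 250 bases before to 50 bases after the annotated start) were matched by symbol for 31 of the 38 genes, some with more than 1 start, which gave 36 windows. BIRC5, BUB3, CENPH, CENPL, CENPM, KNTC1 and TTK had no entry. The CHR was searched as TTTGAA or TTCGAA and the CCAAT box as CCAAT, both on either strand. Matches of the 2 motifs can overlap, as in CDCA8. A CHR match was present in 17 of the 36 windows (47.2%), against 16.4% of the 35116 windows of all genes. A CCAAT match was present in 21 of the 36 (58.3%), against 34.6% of all windows. A match is a description of the letters and not proof of a site, and its absence from this window says nothing about the factors.

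The 30 bases around the match are printed for the 10 genes with a match near the start that fell the most on the log2 scale, to show the letters that these promoters share. Sequences are RefSeq's (GRCh38.p14), run 5′ to 3′ on the strand of the gene and stand in lower case, and capitals mark CHR and CCAAT matches on either strand.
BUB1 (chr2:110678045-110678074, minus strand): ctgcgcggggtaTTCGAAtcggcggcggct
CENPF (chr1:214603215-214603244, plus strand): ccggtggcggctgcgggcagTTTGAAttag
NUF2 (chr1:163321958-163321987, plus strand): ggaggcggcaagTTTGAAaagtgatgacgg
CENPA (chr2:26786026-26786055, plus strand): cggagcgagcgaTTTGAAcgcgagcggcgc
SPAG5 (chr17:28599005-28599034, minus strand): gcgcagagcaggTTCAAAcacagacggcgg
SKA1 (chr18:50375066-50375095, plus strand): ggcgcggcgggcggTTTGAAttttgcttac
BUB1B (chr15:40161034-40161063, plus strand): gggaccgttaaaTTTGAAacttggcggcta
INCENP (chr11:62123989-62124018, plus strand): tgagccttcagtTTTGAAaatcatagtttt
CDCA8 (chr1:37692481-37692510, plus strand): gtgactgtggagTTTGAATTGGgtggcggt
CENPN (chr16:81007205-81007234, plus strand): gcaATTGGtggcTTTGAAggcgcggcgagc

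The CHR matches sat close to the start. In all 17 windows with a CHR match, at least 1 match began within 50 bases of the start, where 5.01% of the windows of all genes have one. This distance was set after the positions had been seen, so it fits the 17 windows by choice. The contrast with 5.01% is therefore no test, and without the limit the shares were 47.2% and 16.4%. In CDCA8 and BUB1B the match began 23 bases before the start, in CENPA 18 and in INCENP 10, while in BUB1 it began at base 2 and in NUF2 at base 17 of the transcript. Of the 16 genes with such a match, 14 fell (87.5%), with a median log2 change of -0.60 and a range of -1.0 to -0.36. The other 2 were SPC25 and SKA3. Of the 15 genes with a window but no such match, 5 fell (CENPE, AURKB, CENPI, ZWILCH and SKA2), with a median of -0.28. No CHR match was found in the windows of MIS12, DSN1, NSL1 and PMF1. Over all tested genes with a window, the kinetochore genes among them, 23.8% of the 508 with a CHR match near the start were lower in NPY1R high. Of the 9740 without one, 7.43% were lower. Of the CCAAT box, 11 of 18 genes with a match fell, and 8 of 13 without.

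**Figure D5:**
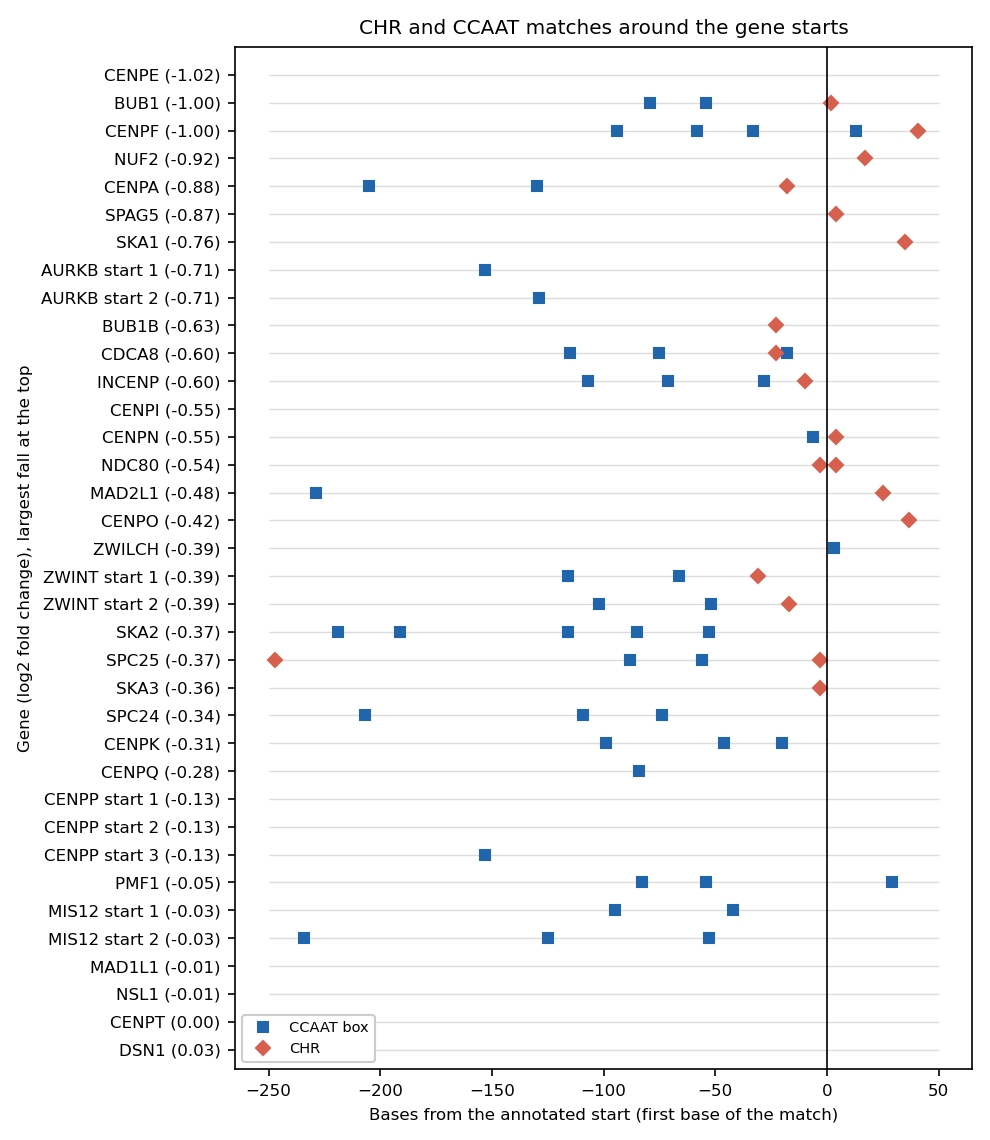
Position of CHR (diamonds) and CCAAT (squares) matches from 250 bases before to 50 bases after the annotated start, 1 row per window, ordered by the log2 fold change given beside the gene name. CHR matches lie around the start in many genes in the upper part of the plot, but the top row, CENPE (-1.02), holds neither motif. AURKB, CENPI, ZWILCH and SKA2, also above SPC24, hold no CHR match. The rows from SPC24 (-0.34) down to DSN1 (0.03) hold no CHR match.

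Per kilobase of the longest GENCODE coding transcript, an approximate scale, SKA2 was the most abundant of the 38 genes, at 160 CPM per kilobase in NPY1R high and 207.4 in NPY1R low. PMF1 had 61.2 CPM per kilobase in NPY1R high and 63.4 in NPY1R low, and ZWINT had 49.2 and 64.7. The 2 means were thus close in NPY1R low, where PMF1 ranged from 51.9 to 80.4 CPM, and their order there is uncertain. CENPP and SPC24 were lowest, at 0.688 and 1.21 CPM per kilobase in NPY1R high. The place of CENPP depends on the transcript of 8766 bases used for it. Its mean of 6.03 CPM in NPY1R high was above those of CENPM (5.50) and SPC24 (2.81).

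Neighbouring parts of the pathway were read from lists written down with earlier results of these data known. Of 27 listed symbols of other kinetochore and centromere genes, 18 were in the count table and were tested. Among these 18, 10 fell and 0 rose, with a median log2 change of -0.44. At an unadjusted p under 0.05, for which no share over all genes is given, edgeR gave 13 lower and 0 higher. DESeq2 and limma-voom called 10 lower and 0 higher. The largest falls were in KIF2C, the microtubule depolymerase of the centromere (-0.84, SE 0.10), KIF18A, the kinesin that limits chromosome oscillation (-0.80, SE 0.08), and KNSTRN, the partner of astrin (-0.78, SE 0.08). CASC5, the older symbol of KNL1, completes the outer layer with the MIS12 and NDC80 complexes and was picked out after its values were seen. It had 61.1, 60.3, 40.4 and 47.2 CPM in NPY1R high libraries against 86.8 to 93.6 CPM in NPY1R low ones, a log2 change of -0.76 (SE 0.12, edgeR adjusted p = 0.00229). ZW10, the third RZZ subunit, had a log2 change of -0.03 (SE 0.06), and CENPC, the inner kinetochore protein that anchors the MIS12 complex, one of 0.09 (SE 0.06), and neither passed.

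The checkpoint acts on the anaphase-promoting complex through CDC20. Of 24 genes of the anaphase-promoting complex and its regulators and substrates, 7 fell and 0 rose, with a median of -0.17. DESeq2 called 8 lower and limma-voom 7, neither called any higher, and edgeR gave 10 lower and 0 higher at an unadjusted p under 0.05. The largest falls were in the substrates PTTG1 (securin, -1.41, SE 0.08) and CCNB1 (cyclin B1, -1.10, SE 0.08) and in CDC20 (-1.09, SE 0.13), the activator that MAD2 and BUBR1 inhibit. Of the core subunits in the list, CDC27 was the single one that passed (-0.32, SE 0.05). CDC20 had 64.2, 55.9, 43.6 and 48.7 CPM in NPY1R high libraries against 128.0, 119.4, 108.9 and 95.8 CPM in NPY1R low ones.

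Of 8 condensin genes, 7 fell, with a median of -0.59, led by NCAPD2 (-0.75, SE 0.08), SMC4 (-0.64, SE 0.05) and NCAPG (-0.60, SE 0.07). Of 13 cohesin genes in the count table (14 symbols listed), 2 fell, STAG1 (-0.45, SE 0.06) and RAD21 (-0.32, SE 0.07), and the median was -0.13. The share lower among all tested genes was 7.81%. In G1 and S phase genes the median was -0.09, and 2 of 27 fell, which is near that share. The 2 were RFC3 (-0.47, SE 0.08) and RRM1 (-0.31, SE 0.06). Beside these 0 rose in edgeR's test and in limma-voom, while DESeq2 called 1 higher, as did edgeR at an unadjusted p under 0.05. MKI67, the proliferation marker, moved with the kinetochore genes, from 78.9 to 101.2 CPM in NPY1R low to 36.7 to 50.9 CPM in NPY1R high (-0.98, SE 0.11, edgeR adjusted p = 0.00032). Its part in the results above was not tested.

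The difference was present on both sides of a division of the replicates that no label gives but that earlier results of these data showed. Between replicates 1 and 2 of each group the median log2 difference of the 38 genes was -0.33, and between replicates 3 and 4 it was -0.58. Over all tested genes these medians were -0.04 and 0.00. Of the 38 genes, 32 had the lower value in replicates 3 and 4, whereas 46.9% of all tested genes had it there. BUB1 differed by -0.85 and -1.15, CENPF by -0.81 and -1.21, and SKA3 by -0.13 and -0.67. MIS12 differed by -0.02 and -0.03. With a term for this division, 26 of the 38 genes fell, the 23 above among them, and CENPH, SPC25 and SKA3 were added. Calls grew over the whole table too: of 14008 genes tested, 1681 were lower with the term and 1094 without it.

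Several members are rich in G and C. MAD1L1 (62.6% GC), CENPM (61.4%), INCENP (59.6%), CENPT (58.5%) and PMF1 (56.2%) each had their lowest NPY1R low value in replicate 4 and their lowest NPY1R high value in replicate 3. With each library's trend on GC content removed, the log2 change of MAD1L1 was 0.08, that of CENPM -0.13, that of INCENP -0.52, that of CENPT 0.08 and that of PMF1 0.03. In that fit 24 of the 38 genes fell, 22 of the 23 above among them, with CENPH and CENPK added and KNTC1 lost. Over all 13189 genes tested there, 1169 were lower. Exons of 12 of the 38 genes overlap those of another counted gene in the GENCODE annotation of GRCh38. For CENPA (with SLC35F6) and PMF1 (with PMF1-BGLAP, a read-through transcript) the overlap is on the same strand. SLC35F6 had 78.0 ± 11.05 CPM in NPY1R high libraries against 78.19 ± 11.64 CPM in NPY1R low ones (SD, n = 4 each). These levels were above the CENPA means of 14.17 and 26.07 CPM. PMF1-BGLAP had 3.32 ± 0.660 CPM in NPY1R high libraries against 3.93 ± 0.668 CPM in NPY1R low ones (SD, n = 4 each). The remaining 10, NUF2, CENPN, CENPL, CENPO, CENPP, CENPT, MIS12, SPC24, ZWILCH and SPAG5, have it on the other strand. The kit is stranded per the labels, but whether counting used strand is not given in the sources used here, so the values of these 12 genes are less certain.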

How the data were processed

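RNA was sequenced from 8 BT474 libraries, 4 labelled NPY1R high and 4 NPY1R low. The authors deposited expected counts per gene, estimated with RSEM 1.3.0 after alignment with STAR 2.5.2 to hg38, per the submitters' processing notes; in each library 7.97% to 8.76% of values were not whole. The annotation and the strand setting of the counting are not given in the sources used here. Expected counts were rounded and genes kept by filterByExpr (minimum count 10). Libraries were scaled by TMM, and the groups were compared without a covariate in edgeR 4.0.16 (quasi-likelihood test, R 4.3.3) over 14008 genes, with Benjamini-Hochberg adjustment and a threshold of 0.05. The common biological coefficient of variation was 13.6%. CPM values use TMM-scaled libraries, and intervals are 95%. Replicates of a group differed by 5.99 to 66.05 in chi-square per degree of freedom, more than counting noise gives, so none was counted as the same library deposited again. The alternatives were other scalings, other filters, DESeq2 1.42.0, limma-voom (limma 3.58.1), a replicate block, a term for replicates 1 and 2 against 3 and 4, a GC offset (GC known for 94.2% of genes tested), a threshold of 0.01 and left-out libraries. Members and lists were chosen with earlier results of these data known. All 38 members are described; from the other lists the 3 largest changes that passed the test, and exceptions, are named. Promoter windows are RefSeq's for GRCh38.p14; transcript lengths, GC content and exon overlaps come from GENCODE.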

Additional observations from a re-analysis of the deposited data

Results flagged for a closer look

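Among the 4 NPY1R high libraries, NSL1 stood at 47.58 CPM in replicate 3, where the other 3 had 41.57 to 42.15 CPM, a gap that took 0.904 of the whole range of the group. Among the 4 NPY1R low libraries, SPAG5 stood at 204.3 CPM in replicate 1, where the other 3 had 192.6 to 194.2 CPM, a gap of 0.859 of the range. The critical value for 4 samples is 0.829. Chance marks about 1 in 20 groups, which is 3.8 of the 76 group values examined (38 genes in 2 groups), and 2 were marked. NPY1R high replicate 3 is the library with the highest NSL1 and also one of the 2 in which GC-rich transcripts were low, and any tie between these was not tested. SPAG5 fell also without NPY1R low replicate 1.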

How the results depend on the processing

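The number of the 38 genes called lower stayed between 17 (adjusted p under 0.01) and 27 (GC offset with replicate block) over the 21 alternatives, with 0 higher throughout, and leaving out 1 library gave 18 to 22. Leaving out NPY1R high replicate 3 and NPY1R low replicate 4 together, an alternative chosen after seeing the data, gave 22. Of 798 values of single genes under the alternatives, 697 kept direction and call, 40 lost the call, 10 gained it and 51 changed sign, and 20 genes kept both throughout. Genes with a change near 0 turned sign, and the cause was not tested. With the other scalings the median log2 change over all tested genes moved as well. It was -0.03 with TMM, -0.00 with median-of-ratios factors, 0.03 with upper-quartile factors and 0.01 with library totals. MAD1L1 was at 0.02 with median-of-ratios factors and DESeq2, 0.05 with upper-quartile factors, 0.04 with library totals, 0.03 with no filter or a 1 CPM filter, 0.00 with limma-voom, 0.01 with the replicate block or the term for replicates 1 and 2, and 0.08 with both GC offsets. MIS12 was at 0.00 with median-of-ratios factors and DESeq2, 0.03 with upper-quartile factors, 0.01 with library totals and with no filter, and 0.02 with the 1 CPM filter. NSL1 was at 0.01 with median-of-ratios factors, DESeq2 and both GC offsets, 0.04 with upper-quartile factors, and 0.03 with library totals and both filters. PMF1 was at 0.01 with upper-quartile factors, 0.03 with the GC offset and 0.04 with GC offset and block. Leaving out 1 library moved CENPT from -0.12 to 0.11, DSN1 from -0.05 to 0.15, MAD1L1 from -0.09 to 0.10, MIS12 from -0.06 to 0.01, NSL1 from -0.04 to 0.04 and PMF1 from -0.12 to 0.04. Over all genes, those higher numbered 1290 with the GC offset, 1465 with GC offset and replicate block and 470 at adjusted p under 0.01, against 810. Those lower numbered 1681 with the term for replicates 1 and 2 and 562 at adjusted p under 0.01, against 1094. Leaving out 1 library gave 624 to 1068 higher and 625 to 1064 lower, the fewest lower without NPY1R high replicate 4 (625), NPY1R low replicate 1 (678) and NPY1R high replicate 3 (710). Of all calls 42.5% were higher, 49.8% with median-of-ratios factors, 56.3% with upper-quartile factors and 54.0% with library totals. With the replicate number as a replicate block, 805 genes were higher, 1028 lower and 22 of the 38 lower, KNTC1 being the one lost (edgeR adjusted p = 0.0672). Same-numbered libraries correlated at 0.339, 0.157, 0.091 and 0.018 in their deviations, and of the NPY1R high libraries only replicate 2 correlated best with its own number, so the numbers were not taken as pairs. CENPM and SPC24 had the widest intervals of the 38 genes, and the reason was not tested.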
